A study of Mus musculus with 2 samples.

Results

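Tumor-associated macrophages (TAMs) take up lipoproteins, free fatty acids and the membranes of dead cells, store the surplus as droplets and return cholesterol to carriers outside the cell. The genes described here are 10 that carry out steps of this traffic: Lpl and Cd36 on the uptake side, the carriers Fabp4 and Fabp5, the droplet coat gene Plin2, the efflux genes Abca1 and Apoe, and Trem2, Gpnmb and Lgals3, which mark macrophages that have taken up lipid or debris. They are named by symbol, a rule that uses no measured value, though they were chosen with earlier results of these data known. All 10 were found among the 32285 genes of the files. Positions given with the genes are those of the gene in GRCm38. They were compared across myeloid cell types defined by markers, and between both libraries.

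The cells were CD45+ cells sorted from the left flank tumor of C57BL/6 mice carrying MC38, a mouse colon cancer line, in both flanks. The right tumor was treated by microwave ablation (MWA) at about 300 mm3, the left one was not ablated, and cells were taken on day 8. Per the methods the mice were male and 6 to 8 weeks old at purchase, and the MWA plus TIGIT group received anti-TIGIT antibody every 3 days from day 1, 3 times per the labels and 4 times per the methods. In the growth experiment of the study the MWA group was given an isotype control antibody, and whether the mice of this library were is not given in the sources used here. There was 1 library of each group, the number of mice behind it is not given in the sources used here, and no untreated tumor was analysed here.

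Each library was read with the 10x 3′ method, which counts transcript molecules by unique molecular identifiers (UMIs). After removal of low-quality barcodes and called doublets, 9231 cells of MWA and 9127 of MWA plus TIGIT were kept, with medians of 5327 and 6287 UMIs. A level is given as UMIs per 1000000 UMIs of the cell class (CPM). It carries an exact Poisson 95% interval, and a ratio of libraries or classes carries an exact conditional binomial one. These intervals cover counting error only. With 1 library per group no difference between the groups can be tested, and 37 barcodes occurred in both libraries.

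Genes of the lipid lists took no part in the clustering, so the 10 genes did not choose the cells they were read in. The TAM-like cells numbered 3607 and 3714 (MWA first, here and below). Their 7 C1q TAM markers, such as C1qa and Adgre1, summed to 16924 and 18302 CPM, against 5951 and 5810 CPM in monocyte-like cells, and the 5 markers each of adipocytes and of tumor epithelium summed to at most 0.363 CPM. The TAM-like cells fell into Selenop TAM-like cells (1292 and 1324, led by Ccl8, Selenop and Mrc1), a cluster led by Slc7a2 and Arg1 (677 and 740), a cluster led by Hspb1 with Ndrg1 among its leading genes (737 and 757), Interferon TAM-like cells (146 and 165) and Cycling TAM-like cells (755 and 728). The monocyte-like cells fell into a C1q intermediate cluster (619 and 720) and a C1q low cluster (109 and 110).

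The 10 genes did not share 1 pattern over these classes. Apoe, Trem2 and Abca1 were spread over all TAM-like classes. Lgals3, Fabp5, Plin2, Cd36, Gpnmb and Fabp4 had their highest TAM-like level in the Hspb1/Ndrg1 cluster in both libraries. Lpl had its highest level outside the TAM-like cells, in monocyte-like cells of the C1q intermediate cluster.

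**Figure D1:**
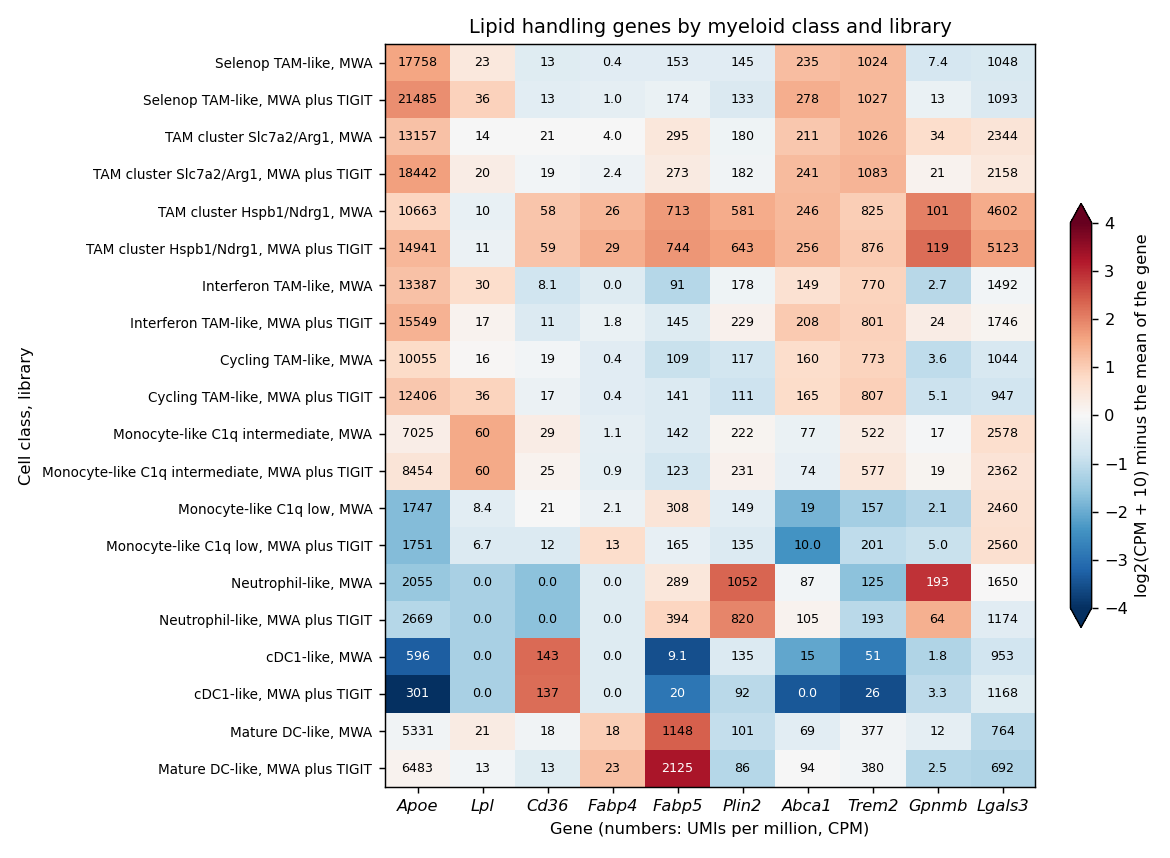
Levels of the 10 genes (columns) in 10 myeloid classes of each library (rows), printed as CPM. Color gives log2(CPM + 10) minus the mean of the gene over the 20 rows. The rows of the Hspb1/Ndrg1 cluster are high for Fabp4, Fabp5, Plin2, Gpnmb and Lgals3 in both libraries, while Apoe is highest in Selenop TAM-like cells, at 17758 and 21485 CPM.

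Apoe (ENSMUSG00000002985, chr7:19696109-19699188, minus strand) encodes apolipoprotein E, the protein that carries cholesterol out of macrophages. In all TAM-like cells it stood at 13562 CPM in MWA and 17400 CPM in MWA plus TIGIT, and after each cell was thinned to 1000 UMIs a UMI of Apoe was found in 98.2% and 99.1% of them. Cells with fewer UMIs than the thinning depth were left out, here and below. Its level was highest in Selenop TAM-like cells and lowest among TAM-like classes in cycling cells (10055 and 12406 CPM). In MWA, interferon TAM-like cells (13387 CPM) and the Slc7a2/Arg1 cluster (13157 CPM) did not differ beyond counting error. Monocyte-like cells held 7025 and 8454 CPM in the C1q intermediate cluster and 1747 and 1751 CPM in the C1q low cluster.

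UMIs of macrophage genes were also found in the other cells, and free RNA, doublets and attached fragments were not told apart as their source. T cells, which do not make Apoe, held 371 and 394 CPM, that is 2.74% and 2.26% of the TAM-like level, and 33.7% and 33.5% of thinned T cells had a UMI of it. The median T cell held 3394 and 3580 UMIs and the median TAM-like cell 8681 and 10622. Trem2 in T cells was at 2.99% and 2.79% of the TAM-like level, and C1qa, a gene of the same macrophages, at 116 and 110 CPM. Values at this share of the TAM-like level are read as background below. The C1q low monocyte-like cells were above it for Apoe, at 12.9% and 10.1%.

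Trem2 (ENSMUSG00000023992, chr17:48346401-48354147, plus strand) encodes a lipid-sensing receptor of macrophages. It stood at 916 and 952 CPM in all TAM-like cells and varied little among their classes, from 770 to 1026 CPM in MWA and from 801 to 1083 CPM in MWA plus TIGIT. Monocyte-like cells held 480 and 542 CPM. Over the 10 myeloid classes of both libraries (20 points, which share libraries and, within a class, clustering), Trem2 was the gene with the second highest correlation to Apoe of log2(CPM + 10) among 4630 genes (Pearson r = 0.99), after Lgmn, a lysosomal protease (r = 0.99). The genes nearest to Trem2 were Apoe, Lgmn and Adgre1, which encodes F4/80. Within thinned TAM-like cells the correlation of Apoe and Trem2 was 0.22 and 0.23.

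Abca1 (ENSMUSG00000015243, chr4:53030787-53159895, minus strand) encodes the membrane pump that hands cholesterol to apolipoproteins. It stood at 209 CPM in MWA and 236 CPM in MWA plus TIGIT over all TAM-like cells, and at 70.3 and 67.9 CPM in monocyte-like cells. The Hspb1/Ndrg1 cluster (246 and 256 CPM) and Selenop TAM-like cells (235 and 278 CPM) held the most among TAM-like classes. In MWA these did not differ beyond counting error (log2 ratio 0.07, interval -0.03 to 0.16), and in MWA plus TIGIT the Selenop TAM-like cells were higher. The genes nearest to Abca1 over the classes were Ctsd, Timp2 and Ms4a7 (r = 0.97, 0.95 and 0.95).

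Compared with monocyte-like cells in the same library, 3 of the 10 genes in MWA and 4 in MWA plus TIGIT were at least 2-fold higher in TAM-like cells. Of the genes with at least 50 CPM in either class, 4.45% and 4.32% were past this fold, and 3.27% and 2.95% were past it in the other direction. Among the 7 lipid genes over that level, Apoe (2.11-fold and 2.22-fold) and Abca1 (2.97-fold and 3.48-fold) were past it in both libraries and Fabp5 in MWA plus TIGIT (1.56-fold and 2.13-fold). Trem2 stayed just inside, at 1.91-fold and 1.76-fold. With TMM factors, which scale libraries on a trimmed mean of gene ratios, the log2 ratio of Apoe in MWA was 0.94 and that of Fabp5 in MWA plus TIGIT 0.97, both under the fold. Fabp4, under the level, was the remaining gene, with 163 and 224 UMIs in TAM-like cells and 5 and 13 in monocyte-like cells. Lpl was the 1 gene past the fold in the other direction, in MWA, at 17.7 CPM in TAM-like and 54.1 CPM in monocyte-like cells, and it stood at 28.3 and 55.4 CPM in MWA plus TIGIT. The direction of Lpl rests on the C1q intermediate cells: against C1q low monocyte-like cells alone its log2 ratio was 1.08 and 2.09. That of Fabp4 rests on the Hspb1/Ndrg1 cluster, without which it was -0.0011 and -0.75.

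Plin2 (ENSMUSG00000028494, chr4:86648386-86670060, minus strand) coats lipid droplets, and its product rises in cells as droplets grow. All TAM-like cells (212 and 218 CPM) and monocyte-like cells (213 and 222 CPM) did not differ in their summed level beyond counting error, with a log2 ratio of -0.01 (interval -0.11 to 0.10) in MWA and -0.03 (-0.11 to 0.06) in MWA plus TIGIT. Within the TAM-like cells the Hspb1/Ndrg1 cluster stood apart, at 581 and 643 CPM, against 145 and 143 CPM in the other TAM-like cells. This cluster held 20.4% of TAM-like cells in each library and 15.5% and 15.0% of their UMIs, but 42.4% and 44.4% of the Plin2 UMIs.

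The leading genes of the cluster were Hspb1, Hspa1b, Mmp12, Hspa1a, Mt2, Ndrg1, Hmox1, Hsph1, Il7r and Bnip3. They include heat shock genes, the hypoxia-induced genes Ndrg1 and Bnip3, and 3 markers of the Arg1 TAM list (Mmp12, Hmox1 and Il7r), which this cluster matched best. Its 8 hypoxia markers summed to 4302 and 4753 CPM, against 1122 and 1330 CPM in Selenop TAM-like cells, and its 7 C1q TAM markers summed to 9502 and 10703 CPM against 20069 and 21338 CPM. Hspa1a stood at 663 and 996 CPM in the cluster and at 81.1 and 37.9 CPM in the other TAM-like cells. Heat shock genes can be induced while tissue is digested, and the part of digestion or of hypoxia in the lipid gene values was not tested.

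In this cluster 5 of the 8 genes with at least 50 CPM on either side were at least 2-fold above the other TAM-like cells. They were the same 5 in both libraries: Cd36, Fabp5, Plin2, Gpnmb and Lgals3. Fabp4, under that level, was past the fold too, with log2 ratios of 4.42 in MWA and 4.61 in MWA plus TIGIT. Of all genes with at least 50 CPM on either side, 4.23% in MWA and 4.71% in MWA plus TIGIT were past this fold, and 8 of the 10 lipid genes reached that level. Cd36 and Gpnmb reached it only through the cluster, where they were high, and no support is drawn from their calls. This comparison was chosen after the clusters had been seen, and it is a description of clustered cells with no test. The median log2 ratio of the 10 genes was 1.80 and 1.93, against -0.37 and -0.35 over all genes at the level.

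Lgals3 (ENSMUSG00000050335, chr14:47367751-47386160, plus strand) encodes galectin-3, a sugar-binding protein of phagocytes. It stood at 4602 and 5123 CPM in the cluster and at 1344 and 1333 CPM in the other TAM-like cells, which is 3.42-fold and 3.84-fold. Monocyte-like cells held 2565 and 2380 CPM, more than all TAM-like cells together (1849 and 1903 CPM). T cells held 306 and 394 CPM, 16.5% and 20.7% of the TAM-like level, which is above the share of Apoe and Trem2 there. Fabp5 in T cells was at 29.0% and 28.1% of the TAM-like level.

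Fabp5 (ENSMUSG00000027533, chr3:10012548-10016607, plus strand) encodes a fatty acid carrier of macrophages, dendritic cells and epithelia. It stood at 713 and 744 CPM in the cluster against 167 and 187 CPM in the other TAM-like cells, 4.28-fold and 3.99-fold. Fabp4 (ENSMUSG00000062515, chr3:10204088-10208576, minus strand), its close relative that is best known from fat cells, was low everywhere: the cluster held 130 and 182 UMIs of it (25.7 and 29.3 CPM), and this was 79.8% and 81.2% of all its UMIs in TAM-like cells.

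Gpnmb (ENSMUSG00000029816, chr6:49036546-49070929, plus strand) encodes a membrane glycoprotein of lysosome-rich macrophages. It stood at 101 and 119 CPM in the cluster against 11.8 and 12.98 CPM in the other TAM-like cells, 8.53-fold and 9.19-fold, and 61.0% and 61.9% of its TAM-like UMIs were there. Cd36 (ENSMUSG00000002944, chr5:17781690-17888801, minus strand), a scavenger receptor and fatty acid transporter, stood at 58.0 and 59.2 CPM against 16.3 and 15.6 CPM, 3.55-fold and 3.80-fold. These folds were close in both libraries for each of the 5 genes.

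Apoe and Lpl were lower in the cluster. It held 0.757-fold and 0.838-fold of the Apoe level of the other TAM-like cells, and Lpl stood at 10.1 and 10.9 CPM against 19.1 and 31.4 CPM. Trem2 was at 0.884-fold and 0.908-fold. In log2, Apoe was at -0.40 and -0.26 and Trem2 at -0.18 and -0.14. The median over all genes with at least 50 CPM on either side was -0.37 and -0.35, so Apoe lay near the typical gene and Trem2 above it. Abca1 was at 1.22-fold and 1.10-fold. In cells with at most 5000 UMIs (167 and 108 of the cluster) the log2 ratio of Abca1 was 0.08 and -0.46, so its direction in MWA plus TIGIT turned, and that of Lpl was -3.32 and -2.42.

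**Figure D2:**
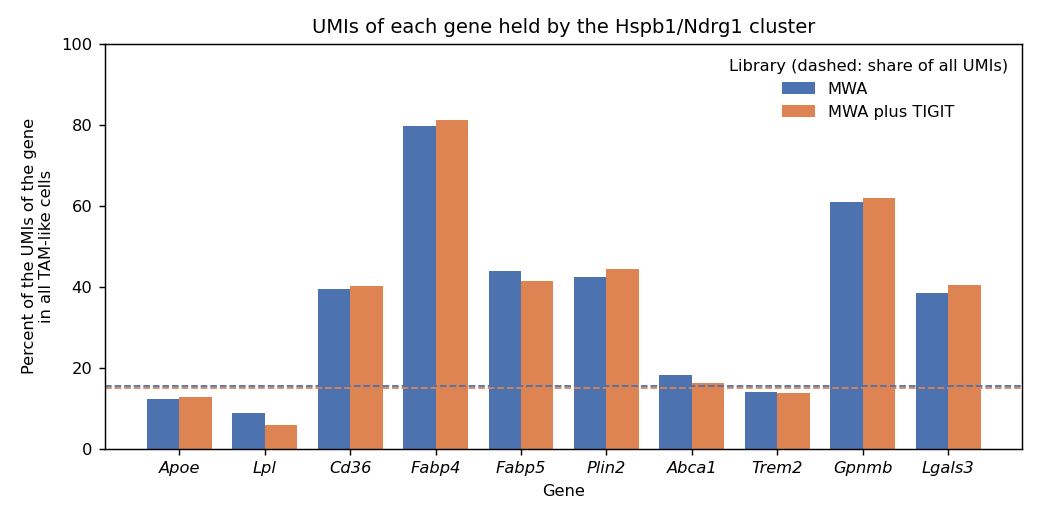
Percent of the UMIs of each gene in all TAM-like cells that lay in the Hspb1/Ndrg1 cluster, by library (bars), with the share of all UMIs of the cluster as dashed lines (15.5% in MWA and 15.0% in MWA plus TIGIT). Bars for Cd36, Fabp4, Fabp5, Plin2, Gpnmb and Lgals3 lie far above the lines, and those for Apoe, Lpl and Trem2 below.

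The same was seen per cell after thinning to 1000 UMIs. A Plin2 UMI was found in 40.6% and 40.6% of cells in the cluster, against 12.8% and 11.8% of Selenop TAM-like cells and 1.63% and 1.49% of T cells. For Fabp5 the shares were 36.6% and 38.2% in the cluster and 10.8% and 13.4% in Selenop TAM-like cells, with 5.95% and 5.95% in T cells. Lgals3 was found in 94.0% and 93.8% of cells in the cluster. Without thinning, 85.9% and 89.8% of cells in the cluster had a Plin2 UMI.

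**Figure D3:**
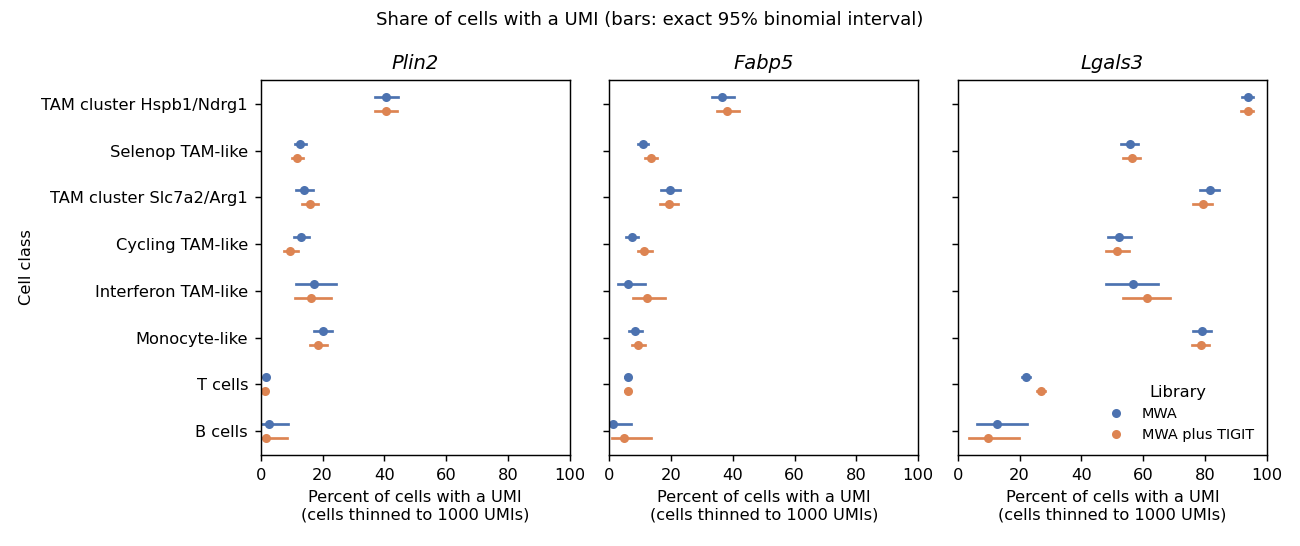
Percent of cells with at least 1 UMI of Plin2, Fabp5 and Lgals3 after thinning to 1000 UMIs (points), with exact 95% binomial intervals (bars), by cell class and library. Cells under 1000 UMIs are left out. Of the 8 classes plotted the Hspb1/Ndrg1 cluster is highest for each gene, at 40.6% for Plin2 in both libraries, and T cells are at 1.63% and 1.49% for Plin2.

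Over all TAM-like cells thinned to 2000 UMIs, the strongest pairs in the same cell were Lgals3 with Fabp5 (Pearson r = 0.35 and 0.37) and Lgals3 with Plin2 (0.32 and 0.37). Lgals3 and Apoe were at -0.22 and -0.12. These pooled values span the TAM-like classes. Within Selenop TAM-like cells Lgals3 was at 0.17 and 0.21 with Fabp5, at 0.06 and 0.09 with Plin2 and at -0.06 and 0.03 with Apoe. Within the Hspb1/Ndrg1 cluster it was at 0.20 and 0.29 with Fabp5, at 0.28 and 0.29 with Plin2 and at -0.10 and -0.04 with Apoe. Over all TAM-like cells Gpnmb with Fabp5 reached 0.18 and 0.25, and Lpl had no pair beyond 0.08 in size. All cells of a library share 1 library, and counts per cell were sparse (a mean of 0.469 and 0.479 UMIs of Plin2), so these values are descriptions. The highest 10% of cells held 67.5% and 63.9% of the Fabp5 UMIs and 27.7% and 26.5% of those of Trem2.

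The promoters of Plin2, Lgals3 and Gpnmb, which were higher in the cluster, are shown with that of Abca1, which differed little there, as sequence context for the hypoxia-induced genes that lead the cluster. Of the 10 genes, 7 had an entry in the RefSeq promoter table (GRCm38.p6, from 250 bases before to 50 bases after a start). Lpl, Fabp4 and Fabp5 had none. Capitals mark ACGTG or GCGTG, the core that hypoxia-inducible factors bind, and TGACTCA, a core bound by AP-1, each on either strand.
Plin2 (chr4:86670010-86670309, minus strand): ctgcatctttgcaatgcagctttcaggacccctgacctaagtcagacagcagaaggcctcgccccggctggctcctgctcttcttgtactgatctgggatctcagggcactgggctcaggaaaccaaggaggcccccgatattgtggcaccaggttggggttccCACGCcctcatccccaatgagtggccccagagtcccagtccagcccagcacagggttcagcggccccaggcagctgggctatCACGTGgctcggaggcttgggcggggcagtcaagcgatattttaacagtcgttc
Lgals3 (chr14:47373610-47373909, plus strand): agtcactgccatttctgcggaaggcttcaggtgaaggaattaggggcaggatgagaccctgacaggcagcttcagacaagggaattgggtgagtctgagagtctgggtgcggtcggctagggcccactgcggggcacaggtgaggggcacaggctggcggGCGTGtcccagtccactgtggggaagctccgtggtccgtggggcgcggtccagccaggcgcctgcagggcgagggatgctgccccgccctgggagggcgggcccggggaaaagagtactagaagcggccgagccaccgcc
Gpnmb (chr6:49036268-49036567, plus strand): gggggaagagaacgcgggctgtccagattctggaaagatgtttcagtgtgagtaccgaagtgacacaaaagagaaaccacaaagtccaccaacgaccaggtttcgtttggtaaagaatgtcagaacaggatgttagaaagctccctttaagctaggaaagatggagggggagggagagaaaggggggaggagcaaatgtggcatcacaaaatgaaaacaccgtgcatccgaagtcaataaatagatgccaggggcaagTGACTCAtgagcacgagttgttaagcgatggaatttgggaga
Abca1 (chr4:53159846-53160145, minus strand): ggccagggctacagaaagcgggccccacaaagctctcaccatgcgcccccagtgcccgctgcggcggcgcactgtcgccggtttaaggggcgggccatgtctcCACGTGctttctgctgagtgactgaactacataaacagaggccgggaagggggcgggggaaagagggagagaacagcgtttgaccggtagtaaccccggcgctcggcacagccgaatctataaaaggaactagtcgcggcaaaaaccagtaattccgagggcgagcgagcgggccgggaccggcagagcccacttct
Counted from the start site, Plin2 held GCGTG on the opposite strand at -86 and the palindrome CACGTG, which contains ACGTG on both strands, at -4. Lgals3 held GCGTG at -90, Abca1 CACGTG at -147, and Gpnmb TGACTCA at 9. Trem2, whose level was even over the TAM-like classes, held GCGTG at -27. Cd36, which was higher in the cluster, and the 3 Apoe promoters of the table held none of these motifs. ACGTG or GCGTG occurred in 43.8% of 32851 promoters of this length, CACGTG in 7.15% and TGACTCA in 5.20%. A match is a description of the letters and shows no binding.

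Other genes of lipid metabolism were taken from 8 lists by function. In the Hspb1/Ndrg1 cluster, of the genes at 50 CPM or more in both libraries, at least 2-fold higher in both were 1 of 3 droplet genes, 2 of 6 efflux and transport genes and 2 of 15 genes known from lipid-associated macrophages. The droplet gene was Hilpda, which restrains droplet breakdown, at 375 and 421 CPM in the cluster and 42.1 and 33.1 CPM in the other TAM-like cells. The transport genes were Abcg1, a cholesterol pump (86.1 and 110 against 40.6 and 53.4 CPM), and Osbpl8 (154 and 144 against 48.5 and 44.5 CPM). The others were Spp1, which encodes osteopontin, at 1233 and 1368 against 402 and 486 CPM, and Ctsl, at 662 and 734 against 277 and 297 CPM. None of 6 uptake genes, 6 hydrolysis and binding genes, 1 transcription factor gene, 4 synthesis genes and 6 oxidation genes was 2-fold higher in both libraries. Of all genes at 50 CPM or more on either side, 4.23% in MWA and 4.71% in MWA plus TIGIT were 2-fold higher. The share higher in both libraries was not calculated, so the counts per list are not read as a result about lipid genes. At least 2-fold lower in both were 4 genes of the 8 lists: the scavenger receptor gene Stab1 (123 and 107 against 333 and 340 CPM), Lpcat2 (54.5 and 60.8 against 179 and 181 CPM) and the synthesis genes Fdps (19.0 and 14.5 against 61.1 and 67.3 CPM) and Acly (27.6 and 30.3 against 59.6 and 69.7 CPM). The share of all genes 2-fold lower in the cluster was not calculated, and the median log2 ratio over all genes was itself -0.37 and -0.35. The count of 4 is therefore not read as a result about lipid genes. Over the myeloid classes the genes nearest to Plin2 were Hk2, Tmem189 and Ero1l (r = 0.96 each), and those nearest to Gpnmb were Plin2, Ero1l and Bnip3 (r = 0.92, 0.92 and 0.91). The genes nearest to Lgals3 were Esd, Pcnx and Sap30 (r = 0.87, 0.85 and 0.81). Those nearest to Fabp5 were Pcyt1a, Rap2b and Mxi1 (r = 0.80, 0.78 and 0.75), and those nearest to Fabp4 were Pik3r5, Gyg and Snhg8 (r = 0.80, 0.80 and 0.77).

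Lpl (ENSMUSG00000015568, chr8:68880491-68907448, plus strand) encodes lipoprotein lipase, which frees fatty acids from circulating lipoproteins. In the C1q intermediate monocyte-like cells it stood at 60.0 CPM (222 UMIs) in MWA and 60.4 CPM (354 UMIs) in MWA plus TIGIT, and in the C1q low cells at 8.37 and 6.66 CPM, from 4 UMIs in each library. The intermediate cells were thus 7.16-fold and 9.07-fold higher (log2 intervals 1.46 to 4.73 and 1.81 to 5.07). No UMI of Lpl was found in neutrophil-like or cDC1-like cells, where 3 UMIs would have been 28.9 and 24.1 CPM and 5.49 and 9.81 CPM. The genes nearest to Lpl over the classes were Ctsc, Gdf3 and Ctsh (r = 0.85, 0.84 and 0.84).

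The same step from C1q low to C1q intermediate monocyte-like cells was seen in efflux genes and Trem2. Apoe was 4.02-fold and 4.83-fold higher, Abca1 4.09-fold and 7.40-fold from 9 and 6 UMIs in the low cells, and Trem2 3.32-fold and 2.86-fold. Fabp5 went the other way, with 308 and 165 CPM in the C1q low and 142 and 123 CPM in the C1q intermediate cells. Lgals3 was nearly level, with log2 ratios of 0.07 and -0.12. The C1qa level that split both clusters was 1709 and 1609 CPM against 157 and 86.5 CPM.

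Outside macrophages and monocytes, single members of the set had their highest level in small classes. Neutrophil-like cells (96 and 88, with medians of 921 and 1151 UMIs) held Plin2 at 1052 CPM (interval 864 to 1269) and 820 CPM (669 to 996), from 109 and 102 UMIs, which is 4.95-fold and 3.76-fold the level of all TAM-like cells. They also held Hilpda at 2287 and 1544 CPM and Gpnmb at 193 and 64.3 CPM, the latter from 20 and 8 UMIs, and their 8 hypoxia markers summed to 4149 and 3699 CPM. After thinning, 43.9% and 46.0% of them had a Plin2 UMI. Their Apoe was at 15.2% and 15.3% of the TAM-like level and their C1qa at 540 and 917 CPM, and Cd36, Fabp4 and Lpl had no UMI there.

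cDC1-like cells, the dendritic cells marked by Xcr1 and Clec9a, held Cd36 at 143 CPM (interval 113 to 178, 63 cells) and 137 CPM (99.0 to 186, 28 cells). This is 6.26-fold and 6.20-fold the level of all TAM-like cells, and 2.46-fold and 2.32-fold that of the Hspb1/Ndrg1 cluster. In the 29 and 16 cDC1-like cells with no C1qa UMI the Cd36 level was 163 and 133 CPM. Fabp5 stood at 9.15 and 19.6 CPM in cDC1-like cells, its lowest level of the 10 myeloid classes in each library.

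Mature DC-like cells, which carry Ccr7 and Fscn1, had the highest Fabp5 of the classes, at 1148 CPM in MWA (68 cells) and 2125 CPM in MWA plus TIGIT (45 cells). This cluster also held RNA of other cells, with C1qa at 2080 and 2163 CPM and the 7 T cell markers at 688 and 378 CPM. At a finer clustering, 37 and 32 mature DC-like cells had C1qa at 213 and 91.2 CPM and Fabp5 at 2092 and 3541 CPM. In the 21 and 16 cells of the cluster with no UMI of C1qa, Cd3d, Cd3e or Cd3g, Fabp5 stood at 2333 and 3882 CPM, and Apoe at 366 and 235 CPM. These sets are too small for a ratio of the libraries.

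Between the libraries, the question is whether anti-TIGIT added to MWA went with other levels in TAM-like cells. Of the 10 genes, 1 (Lpl) was at least 1.5-fold higher in MWA plus TIGIT and 0 were 1.5-fold lower. Of all genes that reached 50 CPM in either group, 0.313% were past the fold upward and 0.157% downward, and none of the 6 lipid genes at that level was. Lpl lay below it, with 577 UMIs (17.7 CPM) in MWA and 1171 UMIs (28.3 CPM) in MWA plus TIGIT. Its ratio was 1.60-fold (log2 0.68, interval 0.54 to 0.83), above that of 99.8% of the tested genes. Lpl itself was not among the tested genes, and it was not ranked among genes of its own level.

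Apoe had the next largest ratio, 1.28-fold (log2 0.36, interval 0.35 to 0.36), above that of 98.8% of tested genes. It was higher in MWA plus TIGIT in each of the 5 TAM-like classes, with log2 ratios from 0.22 in interferon TAM-like cells to 0.49 in the Slc7a2/Arg1 and the Hspb1/Ndrg1 clusters. In monocyte-like cells the log2 ratio of Apoe was 0.27 in the C1q intermediate and 0.00 (interval -0.13 to 0.14) in the C1q low cluster. In T cells, where it was background, it was 0.09. The TAM-like cells of MWA plus TIGIT also held more UMIs per cell, with medians of 10622 against 8681, and the part of depth in these ratios was not tested. In cells with at most 5000 UMIs the log2 ratio of Apoe was 0.41 and that of Lpl 0.75.

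Lpl was less even over the classes. It stood at 15.5 CPM in MWA and 35.7 CPM in MWA plus TIGIT in Cycling TAM-like cells (log2 1.20, interval 0.92 to 1.49), at 23.2 and 36.2 CPM in Selenop TAM-like cells (0.64, interval 0.43 to 0.86) and at 14.3 and 20.3 CPM in the Slc7a2/Arg1 cluster (0.51, interval 0.13 to 0.91). In the Hspb1/Ndrg1 cluster the log2 ratio was 0.12 (interval -0.42 to 0.67), and in interferon TAM-like cells, with 33 and 29 UMIs, it was -0.79 (-1.56 to -0.02). Monocyte-like cells of the C1q intermediate cluster, where the gene was highest, had a ratio of 0.01 (-0.24 to 0.26).

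The other 8 genes differed little over all TAM-like cells. The log2 ratios were 0.18 for Abca1 (interval 0.13 to 0.22) and Gpnmb (0.05 to 0.31), 0.12 for Fabp4 (-0.18 to 0.42), 0.11 for Fabp5 (0.06 to 0.15), 0.06 for Trem2, 0.04 for Lgals3, 0.04 for Plin2 (-0.01 to 0.08) and -0.04 for Cd36 (-0.18 to 0.10). The median over all tested genes was 0.04. For Plin2 and Cd36 the interval held 0, and the same was true of Fabp4 at its 163 and 224 UMIs.

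**Figure D4:**
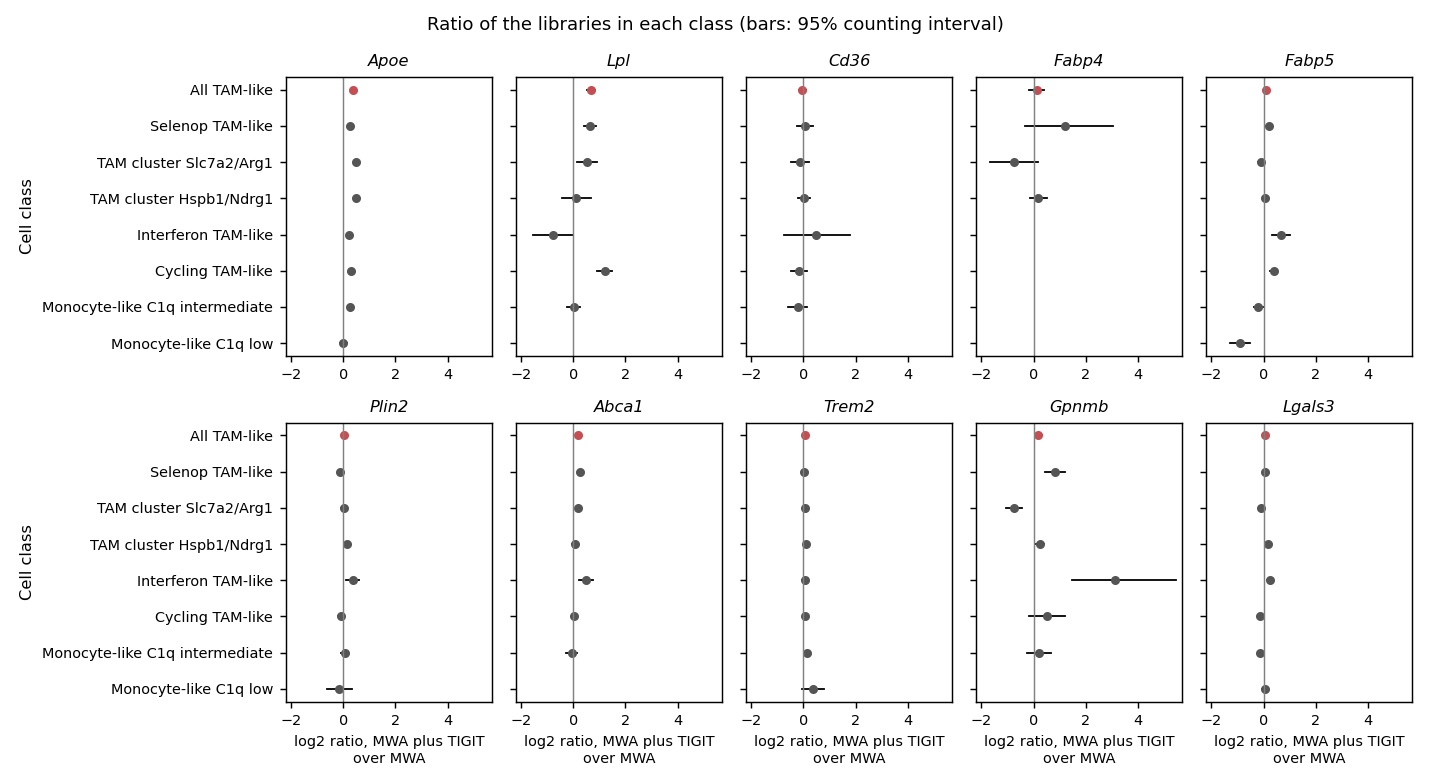
Log2 ratio of MWA plus TIGIT over MWA for each gene in all TAM-like cells (red) and in 7 classes with at least 100 cells in each library (grey), with 95% counting intervals (bars). Points from under 20 UMIs in all are left out. Apoe lies right of 0 in each TAM-like class, Lpl in the Selenop, Cycling and Slc7a2/Arg1 classes, while Plin2 and Lgals3 have points on both sides of 0, up to 0.36 and 0.23 in Interferon TAM-like cells.

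In monocyte-like cells none of the 7 genes that reached 50 CPM was past 1.5-fold between the libraries, with 0.0804% of tested genes past it upward and 0.241% downward. Fabp5 stood at 161 CPM in MWA and 127 CPM in MWA plus TIGIT (log2 -0.34, interval -0.49 to -0.19). In the C1q low cluster, its 147 and 99 UMIs gave 308 and 165 CPM (log2 -0.90, interval -1.28 to -0.52).

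Of the 8 lipid lists, no gene at 50 CPM was past 1.5-fold between the libraries in TAM-like cells, in either direction. The largest ratios were those of Pltp, the phospholipid transfer protein (189 and 263 CPM, log2 0.48), Abcg1 (47.7 and 61.9 CPM, 0.38), Scd2, a fatty acid desaturase (72.9 and 93.0 CPM, 0.35), and Ctsd (1302 and 1655 CPM, 0.35). The median log2 ratio was 0.22 over the 6 efflux and transport genes, 0.21 over the 4 synthesis genes, 0.15 over the 5 hydrolysis and binding genes, 0.12 over the 5 uptake genes, 0.11 over the 4 droplet genes, 0.11 over the 15 lipid-associated macrophage genes and 0.07 over the 4 oxidation genes. No gene of the transcription factor list reached the level. At the low end were Osbpl8 (-0.12) and Syngr1 (-0.16).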

How the data were processed

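Single-cell RNA sequencing was available for 1 library of each group. The authors deposited raw UMI counts per gene and cell, made with Cell Ranger (6.1.1 in the submitters' processing notes, 4.0.0 in the matrix header) on mm10. Barcodes under 200 genes or over 10% mitochondrial UMIs were left out. Doublets were called within each library from simulated doublets and left out (806 in MWA and 786 in MWA plus TIGIT). Cells were integrated and clustered in Seurat 5.3.0 (R 4.3.3) from 2000 variable genes per library, 40 components and resolutions of 0.1 for all and 0.5 for myeloid cells. The 118 genes of the lipid lists were left out of this step. Clusters were named "X-like" from marker lists. The Hspb1/Ndrg1 and Slc7a2/Arg1 clusters both matched the Arg1 TAM list best, with 3 and 1 of its markers among their leading genes. They are called by leading genes. Monocyte-like clusters were split at a C1qa level of 1000 CPM. UMIs were summed per class and library in Python 3.11.15. Intervals were calculated in SciPy 1.17.1 at 95%. Genes needed at least 50 CPM in a compared class or library, and 20 UMIs in all, to enter a background. The interval code was tested on simulated data. The 10 genes were named as a set, with the 2 highest and 2 lowest ratios per list and the 3 genes nearest to each member, which for Cd36 are not reported here. The members and lists were chosen with earlier results of these data known. TMM factors (edgeR 4.0.16) were an alternative.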

Additional observations from a re-analysis of the deposited data

Results flagged for a closer look

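The ratio of the libraries (MWA plus TIGIT over MWA) had opposite signs for 5 genes among the 7 TAM-like and monocyte-like classes with at least 100 cells in each library, with counting intervals that did not hold 0. None of these differences between classes was tested, since each class was read in 1 library of each group. The share of all genes with such opposite signs was not calculated. This count and the one at the end of the paragraph are therefore not read as results about lipid genes. For Lpl the log2 ratio was 1.20 in Cycling TAM-like cells and -0.79 in Interferon TAM-like cells, the latter from 33 and 29 UMIs. For Gpnmb it was 3.14 in Interferon TAM-like cells, from 3 and 40 UMIs, and -0.74 in the Slc7a2/Arg1 cluster. For Fabp5 it was 0.67 in Interferon TAM-like cells and -0.90 in C1q low monocyte-like cells. For Plin2 it was 0.36 in Interferon TAM-like and -0.12 in Selenop TAM-like cells. For Lgals3 it was 0.23 in Interferon TAM-like and -0.14 in Cycling TAM-like cells. Among these 7 classes the higher end was in Interferon TAM-like cells, 146 in MWA and 165 in MWA plus TIGIT, for 4 of these 5 genes.

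A cluster of 256 and 312 cells with medians of 1420.5 and 1177.5 UMIs was given no name and entered no comparison. Apoe stood at 23461 CPM in MWA and 22177 CPM in MWA plus TIGIT there, and Abca1 at 477 and 451 CPM, all above the levels of the TAM-like classes. Its 7 C1q TAM markers summed to 15296 and 12993 CPM. Markers of mast cells or basophils summed to 1003 and 121 CPM and those of fibroblasts to 55.3 and 404 CPM. The part of low depth or of mixed cells in the lipid gene levels was not tested.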

How the results depend on the processing

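Over 13 alternative settings, 236 of 370 ratios of the 10 genes stayed within their counting interval and 110 of the other 134 kept their sign. In all 33 changed sign, of which 20 had an interval that held 0 and 13 did not. Between the libraries, the log2 ratio of Apoe ranged from 0.32 to 0.41 and that of Lpl from 0.59 to 0.75. Cd36, Plin2 and Lgals3 changed sign there, in 8 ratios. Cd36 reached 0.06 with a marker gate, Plin2 -0.06 in cells with at most 5000 UMIs, and Lgals3 went to -6.11e-05 in those cells and to -0.012 without the Hspb1/Ndrg1 cluster, a setting chosen after seeing the data. At the lower fold set as an alternative to 1.5-fold, 2 genes were higher (Apoe and Lpl). Of all genes that reached 50 CPM, 1.68% were past this lower fold upward and 1.29% downward. Lpl lay under that level.

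Between TAM-like and monocyte-like cells in MWA, Cd36 changed sign with a marker gate (0.31), with lipid genes kept in the clustering (0.042) and against C1q low cells (0.12), also chosen after seeing the data. Against these cells Lpl was at 1.08 in MWA and 2.09 in MWA plus TIGIT, Fabp5 at -0.29 in MWA and Fabp4 at -1.30 in MWA plus TIGIT. Without the Hspb1/Ndrg1 cluster Fabp4 was at -0.0011 and -0.75 and Gpnmb at -0.35 and -0.48. The count of genes at least 2-fold higher in TAM-like cells in MWA was 5 in cells with at most 5000 UMIs and 6 against C1q low cells. With the fold lowered to 1.5 it was 6, but the share of all genes past the fold also rose, from 4.45% to 9.35%. In MWA plus TIGIT the count at 2-fold was 2 without the Hspb1/Ndrg1 cluster. For the settings that change the cells no share of all genes is given here, so their counts have no background to be read against. Where no value is given for the cause of such a shift, the cause was not tested. TMM factors moved ratios between the libraries by -0.04 and those between types by -0.14 and -0.12.

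No paired analysis was possible because there was 1 library per group. Library, mice and treatment cannot be told apart, and the spread between animals was not measured. Genes under 50 CPM, such as Fabp4, Lpl, Cd36 and Gpnmb, rest on few UMIs per cell.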
